A study of Mus musculus with 6 samples.

Results

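NADPH oxidases and their subunits were followed in whole mouse dorsal skin through 7 genes, namely Cyba, Cybb, Ncf1, Ncf4, Rac2, Nox4 and Duox1. They were taken by name from the deposited table of read counts, in which 7 of 7 were present among 55487 genes. All 7 passed the filter on low counts. The skin came from day 2 of treatment with DPCP (diphencyprone), which sets off contact allergy. For 3 libraries the treatment also included clodrosome (spelled Codrosome in the sample labels), a liposome form of clodronate that is toxic to phagocytes. For the other 3 it included encapsome, the liposome without clodronate. All 6 libraries carried DPCP, so skin without the sensitizer was not compared. The strain, sex and age of the mice, and whether each library came from its own animal, are not given in the sources used here. The p-values therefore measure only the spread between these libraries, which may be technical.

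NADPH oxidases move electrons from NADPH across a membrane to oxygen and so make superoxide or hydrogen peroxide. The phagocyte enzyme has a membrane core of the catalytic chain NOX2, encoded by Cybb, and its partner p22phox, encoded by Cyba. On activation cytosolic proteins, among them p47phox (Ncf1) and p40phox (Ncf4), join that core together with a Rac GTPase, and the burst of superoxide helps macrophages and neutrophils to kill microbes. NOX4, which also needs p22phox, makes hydrogen peroxide without the cytosolic proteins and is found in fibroblasts, blood vessels and kidney. DUOX1, an oxidase of epithelia and of skin keratinocytes, makes hydrogen peroxide at the cell surface and needs the maturation factor DUOXA1.

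In clodrosome skin the RNA of the phagocyte oxidase was lower than in encapsome skin, and that of Duox1 was higher. Of the 7 genes, 5 were lower and 1 was higher at an edgeR adjusted p under 0.05. Over all 17988 genes tested 13% were called lower and 9.41% higher, or 22.4% in either direction. The median log2 fold change of the 7 genes was -0.79, against 0.01 over all genes tested. The membrane partner Cyba fell most, to 33.5% of its level in encapsome skin, and Rac2 fell least, to 79.7%. Nox4 did not pass, with a log2 fold change of -0.79. In each of the 7 genes the groups did not overlap, with clodrosome libraries below encapsome libraries in 6 of them. The same was true of 40.2% of all genes tested, 20.7% with clodrosome below and 19.5% with it above.

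The count of called members depended on the libraries and the filter. Without clodrosome A, 5 members were lower and 0 higher, against 10.8% and 6.62% of all genes tested (17.4% in either direction). Without clodrosome B, 6 were lower and 1 higher, against 13.2% and 10.6% (23.8%). Without clodrosome C, 3 were lower and 0 higher, against 9.32% and 5.09% (14.4%). Cyba, Cybb and Ncf1 were called in each of these fits. Without encapsome A, 4 were lower and 1 higher, against 10% and 6.08% (16.1%). Without encapsome B, 3 were lower and 0 higher, against 9% and 4.46% (13.5%), and without encapsome C the members' counts were again 3 and 0, against 9.57% and 5.07% (14.6%). With no low-count filter 6 members were lower and 1 higher, against 7.63% and 6.63% (14.3%) of a longer gene list. DESeq2 also called 6 lower and 1 higher, against 13.2% and 9.67% (22.8%). With DESeq2 size factors in edgeR 5 were lower and 1 higher, against 12.9% and 9.5% (22.4%), and with a term for rRNA share 5 and 1, against 13.9% and 9.9% (23.8%).

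The libraries held between 26649396 and 116965654 counts, the largest being clodrosome library A. Values are CPM, read counts scaled to library total with TMM factors, and libraries are called A, B and C in table order, which pairs nothing between groups. A count of 0 allows a level of up to 0.0513 CPM in clodrosome A and up to 0.169 to 0.225 CPM in the other libraries, for counting error only. All 10 macrophage markers were lower in clodrosome skin, where 13% of all genes tested were lower. Their median log2 fold change was -1.88, and their summed level was 684 to 1653 CPM with clodrosome and 3788 to 4520 CPM with encapsome. Adgre1, which encodes the macrophage marker F4/80, had 116, 64.7 and 91.5 CPM in clodrosome libraries A, B and C, against 271, 216 and 239 CPM in encapsome libraries A, B and C. Cd68 and Mrc1, other macrophage genes, changed by -2.01 and -1.97 on the log2 scale (edgeR adjusted p = 3.4e-04 and 0.00166). Clodrosome library B had the lowest sum of macrophage markers, at 684 CPM against 1653 and 1340 CPM in clodrosome A and C. The share of counts in rRNA genes, mitochondrial ones included, split the libraries across the groups. It was 0.355% in clodrosome A, 0.334% in clodrosome C and 0.481% in encapsome A. In clodrosome B, encapsome B and encapsome C it was 0.796%, 0.845% and 0.788%. The labels name no batch. Keratinocyte markers summed to 25460 to 25710 CPM with clodrosome and 17730 to 21830 CPM with encapsome, so RNA of the labelled tissue was abundant in every library.

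Sequence before the transcription start was available in RefSeq for 5 of the 7 genes, namely Cyba, Cybb, Ncf1, Nox4 and Duox1. The windows of the 3 genes with the lowest adjusted p, each called lower, are shown. Each window runs 5′ to 3′ over 280 bases on the minus strand, from 250 bases before the RefSeq start to the first 30 bases of the transcript. In GRCm38.p6 they lie at chr8:122432911-122433190 (Cyba), chrX:9469295-9469574 (Cybb) and chr5:134229596-134229875 (Ncf1). The window of Cybb lies wholly inside the counted gene (9435252 to 9487771), so its RefSeq start is not the outermost start in the gene models counted. Capitals mark matches, on either strand, to the core letters bound by the myeloid factor PU.1 (GAGGAA), to the CCAAT box (CCAAT), to the AP-1 site (TGANTCA) and to the antioxidant response element (TGACNNNGC).
Cyba: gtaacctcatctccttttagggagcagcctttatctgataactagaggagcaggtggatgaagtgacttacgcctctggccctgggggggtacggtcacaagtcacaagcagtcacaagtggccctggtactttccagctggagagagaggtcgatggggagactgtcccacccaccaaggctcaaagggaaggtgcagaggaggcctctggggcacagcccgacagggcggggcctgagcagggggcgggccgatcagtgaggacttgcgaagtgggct
Cybb: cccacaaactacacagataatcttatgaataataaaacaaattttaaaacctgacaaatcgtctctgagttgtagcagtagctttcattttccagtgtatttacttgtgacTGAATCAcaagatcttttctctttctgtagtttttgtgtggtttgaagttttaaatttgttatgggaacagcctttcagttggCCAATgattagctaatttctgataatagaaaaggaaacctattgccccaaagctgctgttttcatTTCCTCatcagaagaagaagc
Ncf1: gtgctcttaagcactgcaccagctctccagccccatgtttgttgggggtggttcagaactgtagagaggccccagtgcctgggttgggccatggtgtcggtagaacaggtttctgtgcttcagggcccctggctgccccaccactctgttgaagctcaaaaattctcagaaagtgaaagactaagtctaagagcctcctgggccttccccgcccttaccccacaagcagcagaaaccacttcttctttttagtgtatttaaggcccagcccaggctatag
Only the window of Cybb held matches among the 5 windows searched. It held the PU.1 letters on the opposite strand (TTCCTC, bases 10 to 15 of the transcript), a CCAAT box at positions -56 to -52 and AP-1 letters at positions -139 to -133, counted from the RefSeq start. Of 32851 mouse promoter windows of this length, 26% held the PU.1 letters, 36.1% the CCAAT box, 7.46% the AP-1 letters and 11.5% the antioxidant response element. A match describes letters and is not evidence of binding.

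Cyba encodes p22phox, the membrane chain that stabilises NOX2 and NOX4, and lies on chromosome 8 (122424776 to 122432930, minus strand, GRCm38). It had 55.5, 56.9 and 47.1 CPM in clodrosome libraries A, B and C, against 163, 147 and 167 CPM in encapsome libraries A, B and C. The gap between the groups was wide beside the spread within them. The means were 53.2 ± 5.30 CPM with clodrosome and 159 ± 10.4 CPM with encapsome (SD, n = 3 each). Cyba had a log2 change of -1.58 ± 0.0926 SE (edgeR adjusted p = 4.42e-05). The call held whichever library was left out, with edgeR adjusted p-values between 1.18e-04 and 5.52e-04.

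Cybb encodes NOX2, the chain that carries the electrons, and lies on the X chromosome (9435252 to 9487771, minus strand). It had 82.8, 63.1 and 62.0 CPM in clodrosome libraries A, B and C, against 148, 110 and 141 CPM in encapsome libraries A, B and C. Encapsome B was the lowest of its group and still stood above every clodrosome library. The means were 69.3 ± 11.7 CPM with clodrosome and 133 ± 20.2 CPM with encapsome (SD, n = 3 each). Cybb had a log2 change of -0.94 ± 0.140 SE (edgeR adjusted p = 0.00169). Whichever library was left out, its edgeR adjusted p stayed between 7.58e-04 and 0.00944. Cyba and Cybb encode the chains of 1 complex, and the ratio of their RNA, a comparison chosen after the values were seen, was not the same in both groups. Cyba stood at 67.0%, 90.2% and 76.0% of the CPM of Cybb in clodrosome A, B and C, against 110%, 134% and 118% in encapsome A, B and C. The ratio was lower in every clodrosome library, by 0.64 on the log2 scale (exact two-sided permutation test, p = 0.1, the smallest that 3 against 3 libraries can give).

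**Figure D1:**
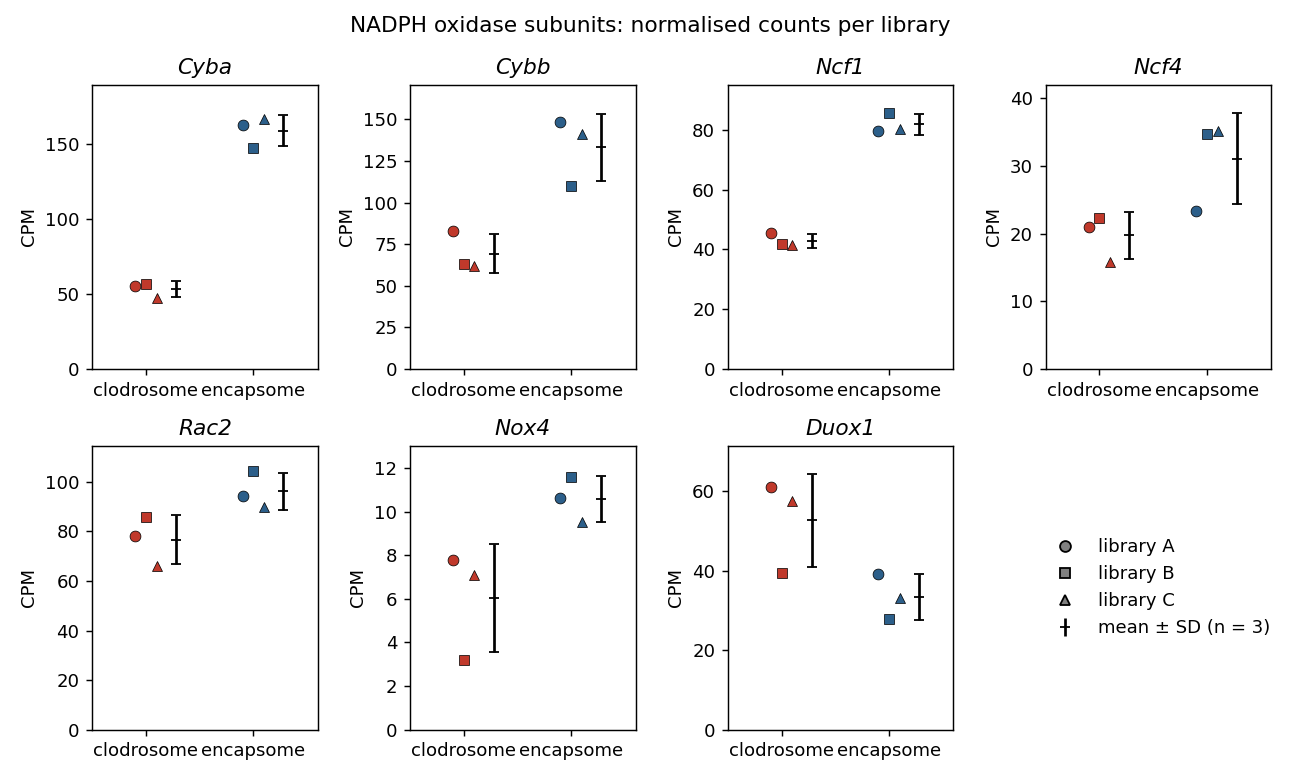
Level of each of the 7 genes in CPM (linear axes from 0), with clodrosome libraries on the left and encapsome libraries on the right of each panel; symbols mark libraries A, B and C, and bars give the mean ± SD (n = 3). Cyba is separated most widely, at 47.1 to 56.9 CPM with clodrosome and 147 to 167 CPM with encapsome, while Duox1 is the gene that stands higher with clodrosome.

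The cytosolic subunits Ncf1 and Ncf4 were also lower in clodrosome skin. Ncf1 encodes p47phox, the organiser that brings the cytosolic complex to the membrane, and lies on chromosome 5 (134220053 to 134229625, minus strand). It had 45.6, 41.8 and 41.4 CPM in clodrosome libraries A, B and C, against 79.6, 85.8 and 80.2 CPM in encapsome libraries A, B and C. Both groups were tight, and their ranges lay far apart. The means were 42.9 ± 2.31 CPM with clodrosome and 81.9 ± 3.42 CPM with encapsome (SD, n = 3 each). Ncf1 had a log2 change of -0.93 ± 0.0736 SE (edgeR adjusted p = 9.73e-05). It was called whichever library was left out, with edgeR adjusted p-values between 1.91e-04 and 9.36e-04. Exons of Gtf2ird2 on the opposite strand cover 11.1% of the exonic bases of Ncf1, where reads would be left out of the count. The other 6 genes share no exonic base with another gene in the table.

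Ncf4 encodes p40phox, which binds a phagosome lipid and sustains the oxidase there, and lies on chromosome 15 (78244801 to 78262580, plus strand). It had 21.0, 22.3 and 15.9 CPM in clodrosome libraries A, B and C, against 23.4, 34.7 and 35.2 CPM in encapsome libraries A, B and C. Encapsome A stood close to the clodrosome range and apart from the other encapsome libraries. The means were 19.7 ± 3.41 CPM with clodrosome and 31.1 ± 6.68 CPM with encapsome (SD, n = 3 each). On the log2 scale Ncf4 changed by -0.65 ± 0.173 (SE; edgeR adjusted p = 0.0253). The call was lost without clodrosome C, encapsome B or encapsome C (edgeR adjusted p = 0.0788, 0.104 and 0.0966). Relative to Cybb, again chosen after the values were seen, Ncf1 did not separate the groups (difference of 0.01 on the log2 scale; exact permutation p = 1), and neither did Ncf4 (0.30; exact permutation p = 0.4).

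Rac2, the Rac GTPase of blood cells that switches the phagocyte oxidase on, lies on chromosome 15 (78559167 to 78572783, minus strand). It had 78.1, 85.7 and 66.1 CPM in clodrosome libraries A, B and C, against 94.2, 104 and 90.0 CPM in encapsome libraries A, B and C. Clodrosome B and encapsome C lay only a few CPM apart. The means were 76.7 ± 9.88 CPM with clodrosome and 96.1 ± 7.31 CPM with encapsome (SD, n = 3 each), and the log2 fold change was -0.33 ± 0.103 (SE; edgeR adjusted p = 0.0484). This call sits at the threshold. It held without clodrosome B (edgeR adjusted p = 0.0179) and was lost without clodrosome A, clodrosome C, encapsome A, encapsome B or encapsome C (edgeR adjusted p = 0.0865, 0.147, 0.0916, 0.172 and 0.0755). The widely expressed paralog Rac1 averaged 273 ± 11.7 CPM with clodrosome and 303 ± 5.26 CPM with encapsome (SD, n = 3 each; -0.15 on the log2 scale, edgeR adjusted p = 0.162), and exons of Daglb on the opposite strand cover 51.4% of its exonic bases. Rac3, a paralog best known from the nervous system, averaged 5.90 ± 0.566 CPM with clodrosome and 5.98 ± 0.670 CPM with encapsome (SD, n = 3 each; -0.01 on the log2 scale, edgeR adjusted p = 0.965).

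Nox4 encodes an oxidase that is regulated largely by its own level, and lies on chromosome 7 (87246096 to 87398710, plus strand). It had 7.79, 3.19 and 7.08 CPM in clodrosome libraries A, B and C, against 10.7, 11.6 and 9.52 CPM in encapsome libraries A, B and C. Clodrosome B, with 97 counts, was far below the other libraries of its group, and the groups did not overlap. The means were 6.02 ± 2.48 CPM with clodrosome and 10.6 ± 1.05 CPM with encapsome (SD, n = 3 each). The log2 fold change of -0.79 ± 0.271 (SE) did not pass by edgeR (adjusted p = 0.0653). It passed by DESeq2 (adjusted p = 0.0081), and by edgeR without clodrosome B (log2 fold change -0.50, adjusted p = 0.0274), without clodrosome A (-1.03, adjusted p = 0.0391) and when low-count genes were kept in (-0.77, adjusted p = 2.36e-05). In that last fit each of the 7 genes had a smaller edgeR adjusted p at nearly the same fold change. For Cybb it was 1.19e-20 against 0.00169, so the small value is not particular to Nox4.

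Fibroblast markers were also lower in clodrosome skin, and their sum fell by more than Nox4 did. Of 8 such genes 7 were lower and 0 higher, with a median log2 fold change of -1.61, and their sum was 4367, 2293 and 3201 CPM in clodrosome A, B and C, against 9646, 9306 and 8174 CPM in encapsome A, B and C. As a share of that sum, a comparison chosen after the values were seen, Nox4 stood at 0.178%, 0.139% and 0.221% in clodrosome A, B and C, against 0.110%, 0.125% and 0.116% in encapsome A, B and C (exact two-sided permutation p = 0.1). That sum did not overlap between the groups, so a gene of constant CPM would also have the higher share in every clodrosome library. Of 7 endothelial markers 5 were higher and 0 lower. Both marker counts stand beside 13% lower and 9.41% higher over all genes tested. The part of these cells in the level of Nox4 was not tested.

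Duox1, the oxidase of keratinocytes, rose in clodrosome skin and lies on chromosome 2 (122315672 to 122347972, plus strand). It had 61.2, 39.4 and 57.5 CPM in clodrosome libraries A, B and C, against 39.2, 27.8 and 33.04 CPM in encapsome libraries A, B and C. Clodrosome B and encapsome A were nearly equal, so the groups only just failed to overlap. The means were 52.7 ± 11.7 CPM with clodrosome and 33.4 ± 5.70 CPM with encapsome (SD, n = 3 each), and the log2 fold change was 0.66 ± 0.172 (SE; edgeR adjusted p = 0.0229). The call was lost without clodrosome A, clodrosome C, encapsome B or encapsome C (edgeR adjusted p = 0.0691, 0.0801, 0.0942 and 0.0717).

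Duoxa1, the gene of the factor that takes DUOX1 to the cell surface, rose as well. It had 37.5, 32.3 and 36.9 CPM in clodrosome libraries A, B and C, against 22.8, 22.5 and 26.1 CPM in encapsome libraries A, B and C. Its groups lay well apart, and its log2 fold change was 0.58 ± 0.0948 (SE; edgeR adjusted p = 0.0026), called whichever library was left out (edgeR adjusted p between 0.00175 and 0.0172). The ratio of Duox1 to Duoxa1, chosen after the values were seen, did not separate the groups (difference of 0.07 on the log2 scale; exact permutation p = 1). Duox2, the paralog best known from thyroid and gut, was low at 1.25, 3.09 and 2.41 CPM in clodrosome A, B and C, against 0.775, 0.970 and 0.876 CPM in encapsome A, B and C. Its log2 fold change was 1.32 ± 0.358 (SE; edgeR adjusted p = 0.0279), a call lost without each library except clodrosome A (edgeR adjusted p up to 0.0838). Duoxa2, whose exons overlap those of Duoxa1 over 42.8% of its bases, averaged 0.459 ± 0.191 CPM with clodrosome and 0.276 ± 0.164 CPM with encapsome (SD, n = 3 each; edgeR adjusted p = 0.431).

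Keratinocyte markers did not move together beside Duox1. Their calls stand beside 9.41% higher and 13% lower over all genes tested. Of 9 genes 4 were higher, among them the basal keratin Krt5, and 3 were lower, namely Krt1, Krt10 and Lor of the differentiating layers. As a share of their summed level, again chosen after the values were seen, Duox1 stood at 0.240%, 0.154% and 0.224% in clodrosome A, B and C, against 0.180%, 0.157% and 0.172% in encapsome A, B and C. These ranges overlapped (exact permutation p = 0.4). The part of keratinocyte layers in the level of Duox1 was not tested.

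**Figure D2:**
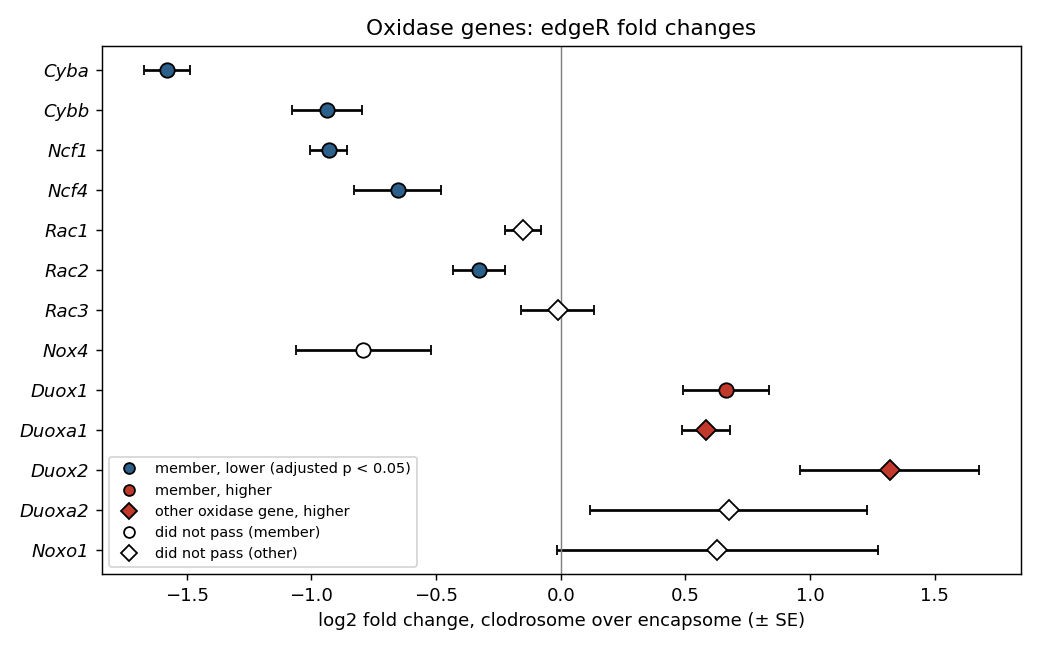
Log2 fold change, clodrosome over encapsome, with its standard error from the edgeR fit for the 7 genes (circles) and 6 other tested oxidase genes (diamonds); blue marks genes called lower, red genes called higher and white genes that did not pass at an adjusted p of 0.05. The phagocyte subunits lie left of 0 from Cyba at -1.58 to Rac2 at -0.33, and Duox1, Duoxa1 and Duox2 lie right of it.

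Levels were compared between genes per length of exon. On the TPM scale, which divides counts by exon length and gives every library the same total, Cyba stood highest at 138 ± 13.1 TPM with clodrosome and 399 ± 27.1 TPM with encapsome, followed by Rac2 at 66.3 ± 6.77 TPM with clodrosome and 80.8 ± 6.32 TPM with encapsome (SD, n = 3 each). Cybb averaged 32.3 ± 6.996 TPM with clodrosome and 59.8 ± 9.53 TPM with encapsome, and Ncf1 averaged 31.6 ± 3.31 TPM with clodrosome and 58.3 ± 2.30 TPM with encapsome (SD, n = 3 each). These neighbours overlapped in both groups. Ncf4 averaged 26.2 ± 4.10 TPM with clodrosome and 40.1 ± 8.04 TPM with encapsome, and Duox1 averaged 27.2 ± 7.44 TPM with clodrosome and 16.5 ± 3.06 TPM with encapsome (SD, n = 3 each). With clodrosome these genes overlapped each other and Ncf1. With encapsome Ncf4 stood below every value of Cybb and Ncf1 and above every value of Duox1. Nox4 was lowest, at 1.94 ± 0.880 TPM with clodrosome and 3.26 ± 0.342 TPM with encapsome (SD, n = 3 each). The lengths count every annotated exon, which lowers the values of genes with long rarely used exons.

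In RNA of whole tissue, fewer cells of a type and less RNA per cell cannot be told apart. Although this does not separate them either, the members were also set against the summed CPM of the 10 macrophage markers in the same library. Cyba stood at 3.36%, 8.33% and 3.52% of that sum in clodrosome A, B and C, against 3.60%, 3.54% and 4.41% in encapsome A, B and C. These ranges overlapped (difference of 0.27 on the log2 scale, exact two-sided permutation p = 1), and the difference was -0.16 without clodrosome B. Cybb stood at 5.01%, 9.23% and 4.63% in clodrosome A, B and C, against 3.28%, 2.65% and 3.72% in encapsome A, B and C. It was thus less reduced than the marker sum. The 10 markers themselves ranged from -0.94 for Csf1r, the same change as that of Cybb, to -2.19 for Cd163 on the log2 scale. Their sum did not overlap between the groups, at 684 to 1653 CPM with clodrosome and 3788 to 4520 CPM with encapsome. A gene of constant CPM would therefore also have the higher ratio in every clodrosome library, so such a separation is not particular to the members. The share of all genes tested that separated in this way was not computed. For Cybb, Ncf1, Ncf4, Rac2, Nox4 and Duox1 every clodrosome library had the higher ratio, with differences of 0.91, 0.92, 1.21, 1.52, 0.94 and 2.50 on the log2 scale (exact two-sided permutation p = 0.1 for each, the smallest that 3 against 3 can give). Without clodrosome B these differences were 0.60 for Cybb, 0.57 for Ncf1, 0.73 for Ncf4, 1.06 for Rac2, 0.97 for Nox4 and 2.32 for Duox1 (exact two-sided permutation p = 0.2 for each). Clodrosome B, the library with the fewest macrophage marker counts, had the highest ratio of its group for Cyba, Cybb, Ncf1, Ncf4, Rac2 and Duox1.

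Markers of other immune cells differed in direction from one cell type to the next. Their counts stand beside 13% lower and 9.41% higher over all genes tested. Of 10 tested neutrophil markers 4 were higher and 0 lower in clodrosome skin, with a median log2 fold change of 0.61. Their sum was 297 to 423 CPM with clodrosome and 260 to 426 CPM with encapsome. Most of it came from Csf3r and Cxcr2, which did not pass and lay below 0 (-0.21 and -0.24 on the log2 scale). Relative to that sum, chosen after the values were seen, Cyba, Cybb, Ncf1, Ncf4, Rac2 and Nox4 were lower in every clodrosome library than in any encapsome library, by 1.68, 1.04, 1.02, 0.74, 0.42 and 1.01 on the log2 scale (exact two-sided permutation p = 0.1 for each). Of 6 mast cell markers 6 were lower, with a median of -0.96, and their sum was 181 to 252 CPM with clodrosome and 378 to 451 CPM with encapsome. Relative to the mast cell sum, also chosen after the values were seen, Cybb did not separate the groups, at 32.9%, 34.8% and 26.0% in clodrosome A, B and C, against 39.2%, 24.5% and 32.5% in encapsome A, B and C (difference of -0.02 on the log2 scale, exact two-sided permutation p = 1). Of 7 dendritic cell markers 1 was lower, Cd209a at -1.63, and 1 higher, Ccr7 at 1.07 (edgeR adjusted p = 3.09e-04 and 0.00135), and their sum was 59.3 to 67.6 CPM with clodrosome and 70.7 to 99.96 CPM with encapsome. Of 3 tested eosinophil markers 1 was higher, Ccr3 at 0.81 (edgeR adjusted p = 0.025), and 0 lower. Of 7 T and NK cell markers 1 was higher and 0 lower, where 9.41% of all genes tested were higher. Of 5 B cell markers only Cd79b had enough counts to test, where it was lower, and the 5 summed to at most 2.24 CPM with clodrosome and 3.81 CPM with encapsome. The part of each cell type in the levels of the oxidase genes was not tested.

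**Figure D3:**
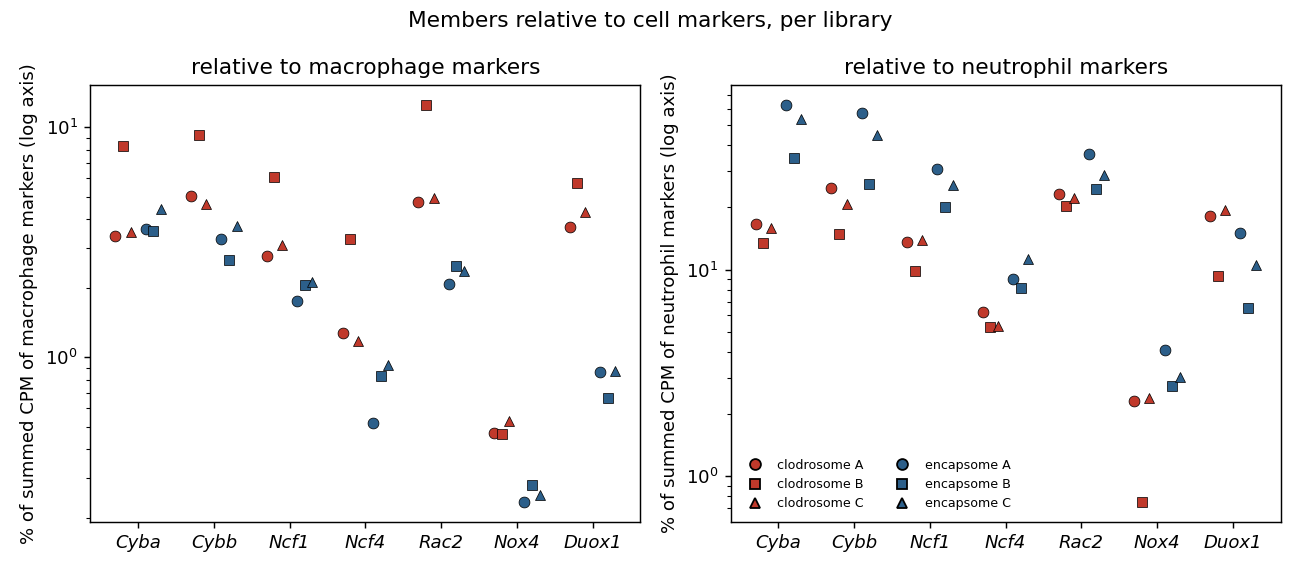
Level of each of the 7 genes as a percentage of the summed CPM of macrophage markers (left panel) and of neutrophil markers (right panel) in the same library, on log axes, with clodrosome in red left of encapsome in blue. Relative to macrophage markers the groups overlap for Cyba and stand apart for the other 6 genes, as they would for a gene of constant CPM. Relative to neutrophil markers 6 genes lie lower with clodrosome and Duox1 overlaps.

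Within the split of libraries by rRNA share each of the 7 genes kept its direction. Any such split must keep it where the groups do not overlap, as in these 7 genes. Among clodrosome A and C against encapsome A, the log2 ratio of mean CPM was -1.67 for Cyba, -1.03 for Cybb, -0.87 for Ncf1, -0.34 for Ncf4, -0.52 for Nox4 and 0.60 for Duox1. For clodrosome B against encapsome B and C it was -1.47 for Cyba, -0.99 for Cybb, -0.99 for Ncf1, -0.65 for Ncf4, -1.73 for Nox4 and 0.37 for Duox1. Rac2 was at 72.1 CPM with clodrosome and 94.2 CPM with encapsome among the first set, and at 85.7 CPM with clodrosome and 97.1 CPM with encapsome among the second. One group in each set is a single library, so no test was made within them. With the split as a term of the edgeR fit, an alternative chosen after seeing the data, Nox4 passed (log2 fold change -1.06, adjusted p = 0.019) and Rac2 did not (-0.28, adjusted p = 0.0648).

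Genes whose profile over the 6 libraries lay closest to those of the catalytic genes were found by the root mean square distance of centred log2 CPM, with 1 CPM as the lowest mean allowed. For Cybb these were Itgb2, Cyp4v3, Slc29a3, Arhgap25 and Ttyh2, at distances of 0.053 to 0.098. Itgb2 encodes the shared chain of the leukocyte beta-2 integrins and changed by -0.90 (edgeR adjusted p = 0.0015). Of the other members Ncf1 lay closest to Cybb, at 0.19, and Duox1 farthest, at 0.813. For Nox4 the closest genes were C1qtnf2, Srpx, Lvrn, Mmp2 and Pcolce, at 0.113 to 0.164, where Mmp2 encodes a matrix protease and Pcolce an enhancer of procollagen processing. For Duox1 they were Pole, Tnk1, Robo2, Tmem79 and Alg3, at 0.042 to 0.099. Since 22.4% of all genes tested were called, many profiles share a step between the groups.

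A list of 19 genes covered the biogenesis and activation of the phagocyte oxidase. It also held genes that restrain it and genes tied to other oxidases. Of the 19, chosen with earlier results of these data known, 13 were lower and 0 higher, where 13% of all genes tested were lower. The median log2 fold change of the 19 was -0.44, against 0.01 over all genes tested. The 6 that did not pass lay between -0.26 for Pla2g4a and 0.14 for Poldip2, with Prkca at -0.04 and Sh3pxd2a at -0.02. Prex1, an exchange factor that loads Rac with GTP, averaged 33.3 ± 2.01 CPM with clodrosome and 64.6 ± 2.06 CPM with encapsome (SD, n = 3 each; -0.96 on the log2 scale, edgeR adjusted p = 9.72e-05). Pik3cg, the lipid kinase of chemoattractant signalling, changed by -1.10 (edgeR adjusted p = 1.57e-04), and Prkcb, a kinase that phosphorylates p47phox, by -1.08 (edgeR adjusted p = 1.6e-04). Sh3pxd2b, an organiser protein related to p47phox that acts in podosomes, changed by -0.88 (edgeR adjusted p = 1.51e-04). Oxidase genes of other tissues were near the detection limit. Nox1, of the colon, had at most 19 counts in any library, Nox3, of the inner ear, at most 16, and Noxa1 at most 19, and none of the 3 was tested. Noxo1 averaged 0.356 ± 0.253 CPM with clodrosome and 0.244 ± 0.124 CPM with encapsome (SD, n = 3 each; edgeR adjusted p = 0.535), and exons of Tbl3 cover 70.4% of its exonic bases.

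Genes that remove superoxide and peroxide did not move as a block. Of 21 genes 4 were lower and 2 higher, where 13% of all genes tested were lower and 9.41% higher. The median log2 fold change of the 21 was -0.08. Gpx2, a glutathione peroxidase of epithelia, rose to 141 ± 32.5 CPM with clodrosome, against 44.7 ± 6.88 CPM with encapsome (SD, n = 3 each; log2 fold change 1.65 ± 0.165 SE, edgeR adjusted p = 2.34e-04). Gpx7, Gpx8 and Prdx4, peroxidases of the endoplasmic reticulum, fell by 0.97, 0.50 and 0.45 on the log2 scale (edgeR adjusted p = 5.72e-04, 0.00594 and 0.0126), and the call of Prdx4 needed encapsome B and C (edgeR adjusted p = 0.0547 without B and 0.0539 without C). The count of lower genes was 2 without encapsome C, and that of higher genes was 1 without each library other than clodrosome B.

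Among 12 targets of NRF2, the transcription factor of the oxidant response, 5 were higher and 1 lower, with a median log2 fold change of 0.13. Over all genes tested 9.41% were higher and 13% lower. Nqo1, a quinone reductase, rose to 51.8 ± 2.60 CPM with clodrosome, against 29.7 ± 1.40 CPM with encapsome (SD, n = 3 each; 0.80 on the log2 scale, edgeR adjusted p = 1.88e-04). Slc7a11, the cystine importer, rose by 0.80 and Gclc, the first enzyme of glutathione synthesis, by 0.50 (edgeR adjusted p = 0.00115 and 0.00152). Hmox1, the haem-degrading enzyme that macrophages also express highly, moved the other way, to 190 ± 32.8 CPM with clodrosome, against 334 ± 16.0 CPM with encapsome (SD, n = 3 each; -0.81 on the log2 scale, edgeR adjusted p = 0.00147). The count of higher genes was 3 without clodrosome A, encapsome A, encapsome B or encapsome C.

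**Figure D4:**
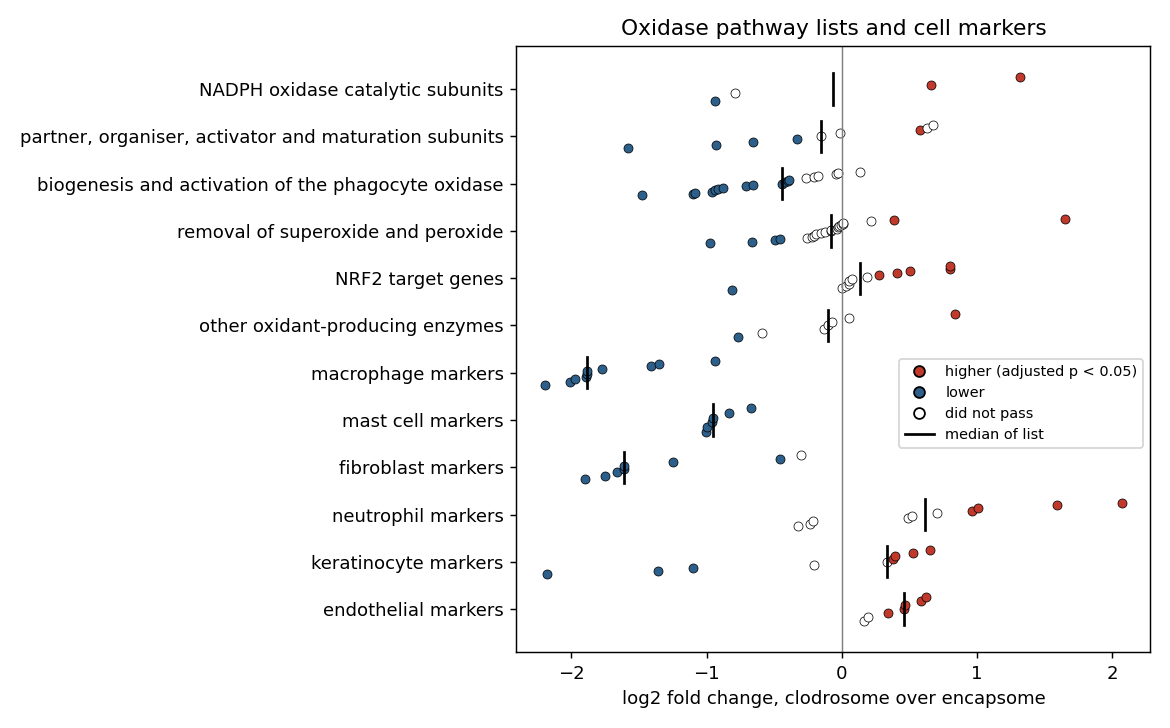
Log2 fold change, clodrosome over encapsome, of every tested gene in the oxidase pathway lists and in 6 sets of cell markers; each point is 1 gene, red called higher, blue called lower and white not passed, and the black bar is the median of the list. Genes listed under oxidase biogenesis and activation, some of which restrain it, lie mostly left of 0 with a median of -0.44. This median lies between the macrophage markers at -1.88 and the NRF2 targets at 0.13.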

How the data were processed

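Polyadenylated RNA of whole skin was sequenced in 6 libraries, 3 clodrosome and 3 encapsome. The table deposited by the authors holds raw counts for each gene. Per the file headers these came from featureCounts 1.6.2 with Ensembl 102 gene models (GRCm38). The command sets no option for strand or pairs, so read ends are counted singly without strand and reads over several genes are left out. The submitters' processing notes also name, without saying what each did, Trimmomatic 0.36, HISAT2 2.2.1, StringTie 2.2.1, DESeq2 1.34.0 and the build mm10. Per the file headers, exon length per gene, used for TPM, is another deposited column. Even numbers made up 63.6% to 69.7% of the counts from 1 to 20 in each library, a pattern that counting both read ends gives, so the detection floor was taken as 6 counts (3 fragments).

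Columns were matched to groups by name. Symbols were found for 55141 gene identifiers (99.4%) in a table of gene names and in RefSeq. The rRNA genes, mitochondrial ones included, were taken from the gene types of GENCODE. Coordinates are those of the deposited table. R 4.3.3 and edgeR 4.0.16 were used for the tests (quasi-likelihood, glmQLFit then glmQLFTest, with group as the only term) after filterByExpr (minimum count 10, minimum total 15), with Benjamini-Hochberg adjustment over 17988 genes and a threshold of 0.05. TMM factors were 0.982 to 1.02. A standard error is the size of a log2 fold change over the root of its F statistic. Fold changes are clodrosome over encapsome. Profiles used log2 CPM with a prior count of 2. Ratios were compared by exact permutation over libraries. Alternatives were DESeq2 1.42.0, its size factors, no low-count filter, each library left out, and a term for rRNA share. The procedure was checked on simulated counts.

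Pairs of libraries within a group differed by a chi-square of 9.93 to 53 for each gene, so no library looked deposited under 2 names. The members and gene lists were chosen with earlier results of these data known. Named genes are the members, the other detected oxidase genes (1 is not reported here), up to 4 called genes of smallest p in each pathway list, Adgre1, Cd68 and Mrc1, and the 5 closest profiles of 3 catalytic genes. Krt5, Krt1, Krt10, Lor, Csf1r, Cd163, Csf3r, Cxcr2, Cd79b, Cd209a, Ccr7, Ccr3, Pla2g4a, Poldip2, Prkca, Sh3pxd2a, Nos2 and Mpo were named after their values were seen.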

Additional observations from a re-analysis of the deposited data

How the results depend on the processing

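The falls of Cyba, Cybb and Ncf1 were called under every alternative run. Leaving out each library in turn gave 3 to 7 called members (3 to 6 lower, 0 to 1 higher), 2477 to 4396 called genes over all tested, and 821 to 1964 called higher. Over these fits the log2 fold change ran from -0.82 to -0.53 for Ncf4, from -0.41 to -0.24 for Rac2, from -1.03 to -0.50 for Nox4, from 0.54 to 0.84 for Duox1 and from -0.098 to 0.064 for Rac3. Nox4 passed at -0.80 with DESeq2, -0.77 with no low-count filter and -1.06 with the rRNA term, and Rac2 was lost at -0.28 with that term. Rac3 was at 0.004 with no low-count filter. The ratio of Cyba to macrophage markers differed by -0.16 to 0.50 with each library left out. The cause of these shifts was not tested. Fits without a library hold fewer samples. With Adgre1, Mrc1 and Cd163 alone as the markers, the ratio of each of the 7 genes kept its direction. No paired analysis was possible because the table columns do not carry the replicate numbers of the sample titles.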

Other observations

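Most other enzymes that make or use oxidants did not pass the test. Of 9 genes, 7 were tested, 1 was lower and 1 higher, with a median log2 fold change of -0.10. The shares over all genes tested were 13% lower and 9.41% higher. Aox1, an aldehyde oxidase that releases superoxide and peroxide, rose to 14.6 ± 1.53 CPM in clodrosome skin, against 8.20 ± 1.10 CPM in encapsome skin (SD, n = 3 each; log2 fold change 0.84 ± 0.134 SE, edgeR adjusted p = 0.00239). Lpo, a secreted peroxidase that uses hydrogen peroxide, was called lower at -0.77 ± 0.230 (SE; edgeR adjusted p = 0.0411), although its groups overlapped, and the call was lost without clodrosome B, clodrosome C, encapsome A or encapsome B (edgeR adjusted p = 0.0761, 0.117, 0.13 and 0.124). Mpo, the peroxidase of neutrophil granules, had at most 9 counts in any library and was not tested. Nos2, the inducible nitric oxide synthase of activated macrophages, changed by 0.05 (edgeR adjusted p = 0.914), with 3.55, 3.26 and 4.45 CPM in clodrosome libraries A, B and C, against 2.23, 3.82 and 4.83 CPM in encapsome libraries A, B and C.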
